A study of Mus musculus with 6 samples.

Results

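Oxidative phosphorylation genes encode the subunits of the 5 protein complexes that oxidise NADH and succinate and make ATP in the inner mitochondrial membrane. Their mRNA was described here in the livers of 6 mice. Genes were taken by symbol, as the rows that start with mt- or carry the usual names of nuclear subunits (Nduf, Sdh, Uqcr, Cox and Atp5 families), with a summed count of at least 60 over the 6 mice. Of 21983 genes in the count table, 95 matched by name and 87 were kept, 75 of them nuclear and 12 mitochondrially encoded. Every one of the 87 passed the low-count filter of the test, which kept 13153 genes.

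All 6 mice were C57BL/6, labelled as 10 weeks old, and drank water with 400 mg/L thioacetamide (TAA) for 16 weeks. Whether the labelled age is that at the start of treatment is not said, so the age at sampling is not known. TAA poisons hepatocytes, and repeated exposure leads to fibrosis. Mice 49, 82 and 88 were labelled Lrat-Cre; Prmt1f/f and are called knockout mice. Mice 42, 83 and 90 were labelled Prmt1f/f, carried the floxed allele without Cre, and are called control mice. Lrat drives Cre in hepatic stellate cells, the collagen-producing cells of injured liver, and Prmt1 encodes an arginine methyltransferase. RNA came from whole liver, so a change of a transcript within cells and a change in the number of cells that hold it cannot be told apart. Values below are always given in the order 42, 83, 90 for control mice and 49, 82, 88 for knockout mice.

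The electron transport chain is built from products of both genomes. Complex I oxidises NADH, complex II oxidises succinate, complex III passes electrons from ubiquinol to cytochrome c, complex IV reduces oxygen, and complex V makes ATP from the proton gradient. Mitochondrial DNA encodes core subunits of every complex except complex II, and all other subunits are nuclear and imported. Hepatocytes, which fill most of the liver's volume, are rich in mitochondria, and their respiration powers the synthesis of glucose and urea.

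The libraries held 13303884 to 16462278 counts. Prmt1 stood at 38.9, 44.4 and 49.8 CPM in the control mice and at 35.8, 24.7 and 25.8 CPM in the knockout mice (log2 fold change -0.62 ± 0.20 SE, adjusted p = 0.347). Its groups did not overlap, but it was not called. CPM are counts per 1000000 of the library size, scaled by the trimmed mean of M-values. Errors of fold changes are standard errors of this comparison of 3 against 3 mice. In the fit across all genes, 0 of 13153 passed an adjusted p of 0.05 (0.0%). At an unadjusted p under 0.05, 5.06% were higher and 5.95% lower in knockout mice. Groups did not overlap for 8.94% of genes with the knockout mice higher and for 7.95% with the knockout mice lower. Control mouse 90 stood apart from the other mice: it was the highest of the 6 for 27.3% of all genes tested. DESeq2 called 1.81% of 13146 genes at the same adjusted p, and none of the 87 oxidative phosphorylation genes was among them.

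Hepatocyte markers were abundant in every library, with a summed level of 83700.1 to 127131 CPM in control mice and 104135 to 124261 CPM in knockout mice. Stellate and myofibroblast markers summed to 1075 to 1464 CPM in control mice and 404 to 814 CPM in knockout mice, and 10 of 14 had non-overlapping groups with the knockout mice lower, against 7.95% of all genes. Of 10 skeletal and heart muscle markers, only Des, also in the stellate list, passed the low-count filter. It stood at 12.1, 18.5 and 16.8 CPM in the control mice and at 6.31, 12.1 and 16.9 CPM in the knockout mice. Myh4, Myh7 and Mb were at 0 and Ckm had 4 counts in all. Of 5 brown fat markers, Elovl3 and Prdm16 passed the filter. Elovl3 stood at 15.0, 0.457 and 2.94 CPM in the control mice and at 11.7, 2.25 and 0.865 CPM in the knockout mice. Prdm16 lay between 2.78 and 7.88 CPM, and Ucp1 had 1 count.

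The mitochondrially encoded rows fell into 2 classes of level, and nuclear copies of their sequence are shown first because they bear on how these rows can be read. Ungapped alignment of GENCODE transcripts was run only against annotated unprocessed pseudogenes of a single block at chr1:24611535-24616197 (GRCm38), a stretch of mitochondrial DNA present in the nuclear genome. It matched 7 of the 13 mt genes, and copies elsewhere in the genome were not aligned. Outside these 7, mt-Nd2 shared 8.19% of its 50-base stretches with other annotated transcripts, Gm13339 foremost. For mt-Nd5 the share was 7.61%, with Gm4076 foremost. Copies of mt-Co2, mt-Atp6, mt-Co3, mt-Nd4l and part of mt-Nd4 were identical to the mitochondrial gene over the whole aligned length. The mt-Nd3 copy matched 344 of 345 bases and the mt-Co1 copy, which covers the end of the gene, 486 of 492. None of these 7 pseudogenes has a row in the count table. The pairs below show a copy with several differences, one with a single difference and one with none. Each is 80 bases long, and capitals mark the bases that differ within a pair.
mt-Co1, chrM:6381-6460, plus strand: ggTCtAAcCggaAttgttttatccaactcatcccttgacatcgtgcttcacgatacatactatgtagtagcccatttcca
Gm29216, chr1:24616118-24616197, minus strand: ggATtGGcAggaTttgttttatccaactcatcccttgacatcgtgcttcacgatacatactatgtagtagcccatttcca
mt-Nd3, chrM:9459-9538, plus strand: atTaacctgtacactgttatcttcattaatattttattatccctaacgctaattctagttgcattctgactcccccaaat
Gm28438, chr1:24613040-24613119, minus strand: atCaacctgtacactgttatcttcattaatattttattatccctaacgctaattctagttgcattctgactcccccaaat
mt-Co2, chrM:7313-7392, plus strand: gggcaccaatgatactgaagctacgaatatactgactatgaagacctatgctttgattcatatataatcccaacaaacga
Gm28661, chr1:24615186-24615265, minus strand: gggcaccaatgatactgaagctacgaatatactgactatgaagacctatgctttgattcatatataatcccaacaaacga
The mt-Co1 differences, counted from 1 at the first base of the gene, are T1056A, C1057T, A1059G, A1060G, C1062A and A1066T. All 6 lie within the first bases of the copy, and the rest of it is identical. The mt-Nd3 difference is T3C, and the mt-Co2 pair is identical. A read from an identical stretch matches both genomes equally well. How reads with more than 1 match were counted is not given in the sources used here.

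The genes with near-complete nuclear copies were counted at a far lower level than their neighbours. mt-Co2 had 753 counts over the 6 mice, mt-Atp6 had 629, mt-Co3 had 1159, mt-Nd3 had 1874 and mt-Nd4l had 108. For each of these 5 genes, between 97.99% (mt-Nd3) and 100% (mt-Co2) of all 50-base stretches also occur in another annotated transcript. By contrast mt-Co1 had 1561303 counts with 51.1% of its stretches shared, mt-Nd4 had 325336 with 62.2% shared, and mt-Cytb had 703556 with 0 shared. Per kilobase of transcript, the mean level was 11601 CPM for mt-Co1, 7048 for mt-Cytb, 5152 for mt-Nd1, 3661 for mt-Nd2 and 2719.8 for mt-Nd4. These values divide by the whole transcript, shared stretches included, so those of mt-Co1 and mt-Nd4 are uncertain. The lowest values per kilobase were 17.2 CPM for mt-Co3, 12.7 for mt-Co2, 10.5 for mt-Atp6 and 4.12 for mt-Nd4l. mt-Co1, mt-Co2 and mt-Co3 encode the 3 catalytic core subunits of complex IV and are cut from the same long heavy-strand transcript, yet their rows differ by orders of magnitude. The counts of these 5 rows are therefore not read here as levels of the mitochondrial mRNA. mt-Atp8, at 5 counts, fell below the minimum, and 21.1% of its exon bases lie within mt-Atp6. It had 0% of its stretches shared with another annotated transcript. However, it lies between mt-Co2 and mt-Atp6, whose copies are neighbours in the chr1 block. Sequence between the annotated copies was not compared, so a nuclear copy of mt-Atp8 would not be seen here. The part of sequence sharing in the low counts was not tested.

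**Figure D1:**
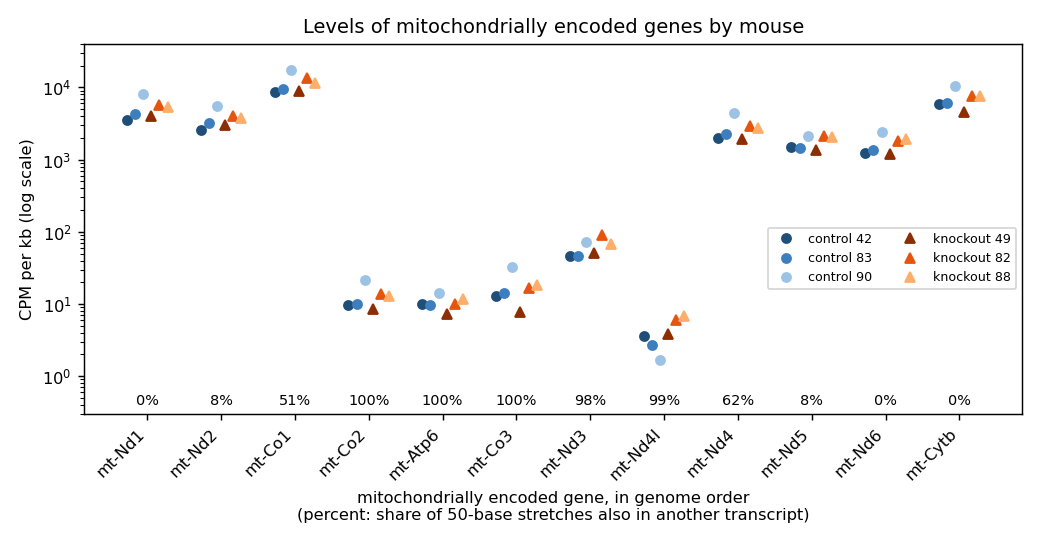
Level per kilobase of transcript (CPM per kb, log scale) of the 12 mitochondrially encoded genes kept, in genome order, for each control mouse (circles) and knockout mouse (triangles). The percentage under each gene is the share of its 50-base stretches that also occur in another annotated transcript: the 5 genes at 98% or more lie below the 7 others in every mouse.

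Among the 7 mitochondrial genes with fewer shared stretches, mt-Co1 had the highest level per kilobase and mt-Cytb the next in every mouse. mt-Co1, the subunit of complex IV that binds oxygen, stood at 13468, 14894 and 26762 CPM in the control mice and at 13697, 20821 and 17903 CPM in the knockout mice (log2 fold change -0.073 ± 0.38 SE, adjusted p = 0.954). Mouse 90 was the highest, mice 42 and 49 were the lowest, and the groups overlapped. mt-Cytb, the cytochrome b of complex III, stood at 6639.8, 6980.0 and 11889 CPM in the control mice and at 5206, 8823 and 8839 CPM in the knockout mice (log2 fold change -0.16 ± 0.36 SE, adjusted p = 0.887). The core complex I gene mt-Nd1 stood at 3387, 4103 and 7748 CPM in the control mice and at 3810.2, 5420.0 and 5114 CPM in the knockout mice (log2 fold change -0.087 ± 0.37 SE, adjusted p = 0.94). These 3 genes showed the same arrangement, and together they made up 71.8% to 73.2% of mitochondrial counts in a mouse.

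Further complex I core subunits encoded in mitochondrial DNA gave the same picture. mt-Nd2 stood at 2689, 3287 and 5671 CPM in the control mice and at 3087, 4147 and 3919.6 CPM in the knockout mice (log2 fold change -0.062). The highest level was that of mouse 90 and the lowest that of mouse 42. For mt-Nd4 the levels were 2731, 3114, 6095 CPM in the control mice and 2653, 4070.5, 3823 CPM in the knockout mice (log2 fold change -0.18). mt-Nd5 stood at 2729.8, 2605 and 3869 CPM in the control mice and at 2461, 3867 and 3717 CPM in the knockout mice (log2 fold change 0.13); here mouse 90 was only just above mouse 82. mt-Nd6, the only one of these genes on the light strand, stood at 649, 696 and 1267 CPM in the control mice and at 630.2, 944 and 1013 CPM in the knockout mice (log2 fold change -0.013). The labels do not say that strand was kept in the libraries, so reads of mt-Nd6 and of the antisense transcript across it cannot be told apart.

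The 5 rows with nuclear copies did not all follow this arrangement. mt-Co3 stood at 10.2, 11.3 and 25.9 CPM in the control mice and at 6.12, 13.04 and 14.3 CPM in the knockout mice (log2 fold change -0.50), with mouse 90 again highest. mt-Co2 was 6.60, 6.91, 14.8 CPM in the control mice and 5.79, 9.44, 8.72 CPM in the knockout mice (log2 fold change -0.24). mt-Atp6, a subunit of the proton channel of complex V, stood at 6.73, 6.61 and 9.73 CPM in the control mice and at 4.96, 6.82 and 7.999 CPM in the knockout mice (log2 fold change -0.22). For mt-Co2 and mt-Atp6 too, mouse 90 was the highest and mouse 49 the lowest. mt-Nd3 stood at 15.9, 15.9 and 25.03 CPM in the control mice and at 17.6, 30.9 and 23.8 CPM in the knockout mice (log2 fold change 0.35), with mouse 82 highest. mt-Nd4l had 16, 16 and 6 counts in the control mice and 18, 24 and 28 counts in the knockout mice. It was the only mitochondrial gene whose groups did not overlap (log2 fold change 1.04 ± 0.46 SE, adjusted p = 0.454), and the only one lowest in mouse 90, but it rests on 108 counts and on a row shared almost wholly with Gm10222.

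Between genotypes, none of the 12 mitochondrially encoded genes passed the test. Their median log2 fold change was -0.080, against -0.023 over all genes tested, with 3 positive and 9 negative. Over the 7 with fewer shared stretches alone it was -0.073, with 1 positive and 6 negative. Over the 13 mt rows, mitochondrial genes took 3.41%, 4.27% and 5.82% of the counts of the control mice and 3.17%, 4.37% and 4.19% of those of the knockout mice. The 5 rows not read as mRNA levels summed to only 35.6 to 76.0 CPM in a mouse, against 31545 to 63301 CPM for the 7 others. These shares, and the ratio below, are therefore not read as those of all mitochondrial mRNA. The exact (Clopper-Pearson) 95% interval of the share in mouse 90 was 5.81% to 5.84%; such intervals cover counting error only. Group means were 4.50% ± 1.22 (SD, n = 3) and 3.91% ± 0.649 (SD, n = 3), a difference smaller than the spread between control mice. Nuclear subunits took 1.04%, 1.08% and 1.47% of counts in the control mice and 1.11%, 1.12% and 1.15% in the knockout mice. For both genomes mouse 90 had the largest share, and the ratio of mitochondrial to nuclear counts ranged from 2.85 in mouse 49 to 3.96 in mouse 90.

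**Figure D2:**
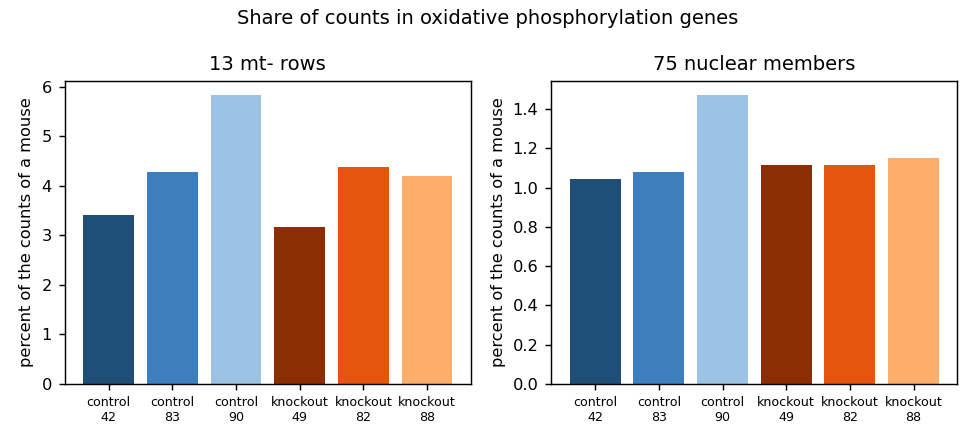
Percent of the counts of each mouse that fell in the 13 mitochondrially encoded rows (left) and in the 75 nuclear subunit genes (right), with bars from 0. Control mouse 90 has the highest bar in both panels, at 5.82% and 1.47%, and the other 5 mice lie between 3.17% and 4.37% and between 1.04% and 1.15%.

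Nuclear subunits were expressed well below mt-Co1 on the same scale of CPM per kilobase of transcript. Median levels were 89.2 for the 34 subunits of complex I, 149 for the 4 of complex II, 212 for the 7 of complex III, 233 for the 12 of complex IV and 209 for the 15 of complex V. Ndufa4 is counted with complex IV, and Cox7a2l, Ndufa4l2 and Atp5s were set apart because they are not standing subunits of these complexes. The highest nuclear level was 819 for Cox6a1 of complex IV, followed by 747 for Atp5b, the catalytic beta subunit of complex V. A few rows were far lower than their complex. Atp5g2, 1 of 3 genes for the same c-ring protein, stood at 2.85 with 87.4% of its 50-base stretches shared, and Atp5l at 7.81 with 84.8% shared. Ndufb2 stood at 0.903 with 5.39% shared. Both of its values depend on a transcript model of 4371 bases, of which 315 are coding.

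In all, 8 matching rows fell below the minimum of 60 counts: mt-Atp8 and 7 nuclear genes. Cox7b2 and Cox8c, subunit forms known from testis, had 0 counts. Cox6a2 and Cox8b, the forms of striated muscle and brown fat, had 16 and 12 counts. Uqcrc1 (a core subunit of complex III), Atp5a1 (the alpha subunit of complex V) and Ndufs3 (a core subunit of complex I) had 1 count each. These 3 encode standing subunits of their complexes, and their partners were abundant: Uqcrc2 had 17684 counts and Atp5b 127181. Of their 50-base stretches, 0% in Uqcrc1, 3.30% in Atp5a1 and 39.7% in Ndufs3 were shared with another transcript. Why their rows are nearly empty was not tested, and no level of these genes is read from them. Just above the minimum lay mt-Nd4l with 108 counts and Cox7a1 and Cox6b2 with 146 each.

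The nuclear subunits moved together from mouse to mouse. The mean deviation of their log2 CPM from each gene's mean over the 6 mice was -0.27, -0.33 and 0.55 in the control mice and -0.093, 0.060 and 0.086 in the knockout mice. Mouse 90 was the highest of the 6 mice for 62 of 75 nuclear and 10 of 12 mitochondrial genes, against 27.3% of all genes tested. Controls 42 and 83 held the lowest value for 25 and 44 of the 75 nuclear genes. Mean deviations of the 12 mitochondrial genes were -0.30, -0.23 and 0.49 in the control mice and -0.41, 0.24 and 0.21 in the knockout mice. Over the 7 with fewer shared stretches they were -0.36, -0.21 and 0.60 in the control mice and -0.39, 0.21 and 0.15 in the knockout mice. Mouse 49 was thus low for the mitochondrial genes, close to mouse 42 over those 7, and near the middle for the nuclear ones. By complex, the mean deviation in mouse 90 was 0.60 for complex I, 0.58 for complex III, 0.65 for complex IV and 0.55 for complex V, but 0.040 for complex II. Hepatocyte markers deviated by -0.20, -0.62 and 0.20 in the control mice and -0.026, 0.31 and 0.35 in the knockout mice; they were low in mice 42 and 83 too, and their part in the pattern was not tested.

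**Figure D3:**
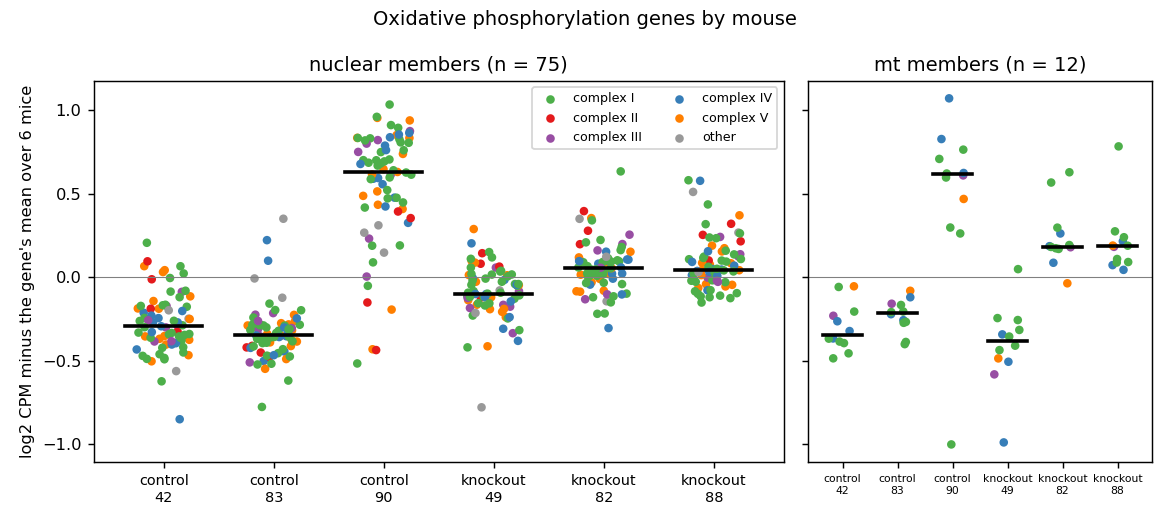
Deviation of log2 CPM from the gene's mean over the 6 mice, for the 75 nuclear genes (left) and the 12 mitochondrially encoded genes (right), by mouse; points are genes coloured by complex and black bars are medians. Medians of the nuclear genes are -0.29, -0.35 and 0.63 in control mice 42, 83 and 90 and -0.098, 0.057 and 0.046 in knockout mice 49, 82 and 88.

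Between genotypes, none of the 75 nuclear subunits passed the test (0 of 75 at an adjusted p of 0.05, against 0.0% of all genes). Their median log2 fold change was -0.083, against -0.023 over all genes, with 23 positive and 52 negative. At an unadjusted p under 0.05, Sdha and Ndufs1 were higher in knockout mice and none was lower, 2 of 75 against the 5.06% of all genes that were higher. Groups did not overlap for 6 of 75, all with the knockout mice higher (Atp5b, Atp5g2, Ndufs1, Ndufv1, Sdha and Uqcrc2), against 8.94% of all genes, and for 0 of 75 with the knockout mice lower, against 7.95%. The share with higher knockout mice is close to that of all genes. DESeq2 and limma-voom called none of the 75 either. The spread of the controls, set by mouse 90 on one side and mice 42 and 83 on the other, held all 3 knockout values of many subunits, as the complexes below show.

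Complex II, which also serves the tricarboxylic acid (TCA) cycle as succinate dehydrogenase, was the complex whose 4 subunits all had positive log2 fold changes, with a median of 0.27. Sdha, the flavoprotein that oxidises succinate (chr13:74322254-74350280, minus strand, GRCm38), stood at 457, 347 and 341 CPM in the control mice and at 509.7, 607 and 576 CPM in the knockout mice. Each of the 3 knockout mice was above each control mouse, and mouse 90 was the lowest (log2 fold change 0.56 ± 0.22 SE, adjusted p = 0.408, unadjusted p = 0.0306). Sdhd, a membrane anchor, stood at 175, 123 and 148 CPM in the control mice and at 171, 188 and 190.5 CPM in the knockout mice (log2 fold change 0.30). Here control mouse 42 exceeded knockout mouse 49. Sdhb, the iron-sulfur subunit, stood at 166, 149.9 and 274 CPM in the control mice and at 192, 253 and 248.7 CPM in the knockout mice (log2 fold change 0.23), and the other anchor Sdhc stood at 164, 137 and 239 CPM in the control mice and at 198, 201 and 200.3 CPM in the knockout mice (log2 fold change 0.15). For both of these genes mouse 90 was the highest mouse and the other 2 controls the lowest.

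None of the 34 nuclear subunits of complex I passed the test. The median log2 fold change over them was -0.079, with 10 positive and 24 negative. Over the 6 catalytic core subunits tested it was 0.31, with 4 positive and 2 negative, and without mouse 90 it was 0.38, with 6 positive. Ndufs1, the large iron-sulfur subunit of the NADH-oxidising arm (chr1:63143596-63176833, minus strand), stood at 123, 100.9 and 86.05 CPM in the control mice and at 137, 156 and 153 CPM in the knockout mice. All knockout mice were above all controls, and mouse 90 was again the lowest (log2 fold change 0.53 ± 0.19 SE, adjusted p = 0.384, unadjusted p = 0.0235). Ndufv1, which binds NADH and FMN, stood at 169, 139 and 173 CPM in the control mice and at 193, 200.5 and 211 CPM in the knockout mice (log2 fold change 0.33 ± 0.18 SE, adjusted p = 0.525). Ndufs7, an iron-sulfur subunit near the ubiquinone site, stood at 38.4, 38.5 and 80.8 CPM in the control mice and at 44.2, 91.95 and 88.6 CPM in the knockout mice. It split the mice otherwise: mice 42, 83 and 49 were low and mice 90, 82 and 88 high, so the groups overlapped (log2 fold change 0.51 ± 0.36 SE, adjusted p = 0.612). The accessory subunit Ndufb4 had the most negative log2 fold change among the nuclear subunits and stood at 6.67, 3.66 and 13.2 CPM in the control mice and at 5.41, 5.85 and 6.49 CPM in the knockout mice (log2 fold change -0.39 ± 0.43 SE, adjusted p = 0.735). For it mouse 90 lay well above and mouse 83 below the other 4 mice.

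In complex III, 2 of 7 subunits had positive and 5 negative log2 fold changes (median -0.13). Uqcrc2, a core subunit (chr7:120635176-120659524), stood at 187, 156 and 199 CPM in the control mice and at 207, 237 and 217 CPM in the knockout mice; groups did not overlap (log2 fold change 0.29 ± 0.19 SE, adjusted p = 0.59). A share of 24.8% of its 50-base stretches also lies in the overlapping gene Pdzd9. Uqcr10, a small accessory subunit, stood at 152, 156 and 305 CPM in the control mice and at 166, 165 and 179 CPM in the knockout mice (log2 fold change -0.26 ± 0.29 SE, adjusted p = 0.735). Mouse 90 was far above the other 5 mice, which lay between 152 and 179 CPM. Of the neighbours in the chain with symbols outside the naming rule, Cyc1, the cytochrome c1 of this complex, stood at 236, 191 and 274 CPM in the control mice and at 259, 282 and 270.1 CPM in the knockout mice (log2 fold change 0.21), and Cycs, the mobile carrier cytochrome c, stood at 4.80, 5.49 and 16.52 CPM in the control mice and at 7.21, 6.74 and 5.84 CPM in the knockout mice (log2 fold change -0.43).

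Complex IV had no subunit whose groups did not overlap, and its 12 nuclear log2 fold changes were 3 positive and 9 negative (median -0.12). Cox6c stood at 170.1, 182 and 404 CPM in the control mice and at 181, 233 and 238 CPM in the knockout mice (log2 fold change -0.21 ± 0.34 SE, adjusted p = 0.827). Cox7c stood at 20.7, 23.1 and 46.6 CPM in the control mice and at 26.6, 25.6 and 28.2 CPM in the knockout mice (log2 fold change -0.17 ± 0.30 SE, adjusted p = 0.844). In both small structural subunits mouse 90 was far above the other 5 mice and mouse 42 was the lowest. Cox4i1, a large nuclear subunit outside the naming rule, stood at 391, 359 and 665 CPM in the control mice and at 463, 476 and 488 CPM in the knockout mice (log2 fold change 0.013), and its lung-type partner Cox4i2 had 31 counts in all.

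Isoform use was that of liver in all 6 mice. Cox6a1 stood at 371, 334 and 685 CPM in the control mice and at 453, 489.6 and 471 CPM in the knockout mice, whereas its muscle form Cox6a2 had 16 counts. Cox8a stood at 254, 236 and 476 CPM in the control mice and at 269, 302 and 299 CPM in the knockout mice, and its muscle form Cox8b had 12 counts. Cox7a2 stood at 113, 96.3 and 236 CPM in the control mice and at 126, 144 and 138 CPM in the knockout mice, against a muscle form, Cox7a1, that stood at 0.800, 1.83 and 2.21 CPM in the control mice and at 1.16, 1.499 and 2.38 CPM in the knockout mice. Per kilobase of transcript the mean level was 216 CPM for Cox7a2 and 3.39 CPM for Cox7a1. None of these forms passed the test between genotypes; log2 fold changes were 0.024 for Cox6a1, -0.15 for Cox8a, -0.12 for Cox7a2 and 0.059 for Cox7a1, the last on 146 counts.

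In complex V, 3 of 15 nuclear subunits had positive and 12 negative log2 fold changes (median -0.086). Atp5b (chr10:128083273-128090391) was the most counted nuclear gene of the set and stood at 1451, 1174 and 1242 CPM in the control mice and at 1519, 1579 and 1619 CPM in the knockout mice. The knockout mice all exceeded the 3 control mice, by less than the test could call (log2 fold change 0.29 ± 0.23 SE, adjusted p = 0.645). Atp5g2 showed non-overlapping groups on 185 counts, with 2.13, 1.52, 1.47 CPM in the control mice and 2.51, 2.17, 2.67 CPM in the knockout mice (log2 fold change 0.52 ± 0.35 SE, adjusted p = 0.603). Its row is uncertain, because 87.4% of its 50-base stretches also lie in other transcripts, mostly the pseudogene Gm10175. Ndufab1, the acyl carrier protein built into complex I and outside the naming rule, stood at 37.5, 26.7 and 47.8 CPM in the control mice and at 35.2, 37.8 and 39.6 CPM in the knockout mice (log2 fold change 0.011).

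The subunits with non-overlapping groups were mostly long, and in mouse 90 the deviations of the subunits varied with coding length. Most nuclear subunits are small proteins: 66 of 75 have a coding length under 1000 bases in GENCODE. In mouse 90, the Spearman correlation of the deviation with coding length was -0.57 over the 75 nuclear subunits and -0.50 over 13107 genes with a coding length. These points share 1 library, and genes are not independent, so the values are descriptions. Over all genes, the median deviation in mouse 90 fell stepwise from 0.46 for coding lengths of 111 to 606 bases to -0.42 for 3172 bases or more. Deviations of a gene sum to 0 over the 6 mice, so a slope in 1 mouse fixes the average slope of the others. Their correlations over all genes lay between 0.10 and 0.28. Over the 75 subunits they were 0.36 in mouse 42, -0.029 in mouse 83, 0.51 in mouse 49, 0.35 in mouse 82 and 0.20 in mouse 88. Mouse 90 was the highest mouse for 59 of the 66 short subunits and for 3 of the 9 long ones. Over all genes tested it was the highest for 2107 of 4071 short genes and 1473 of 9036 long genes.

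**Figure D4:**
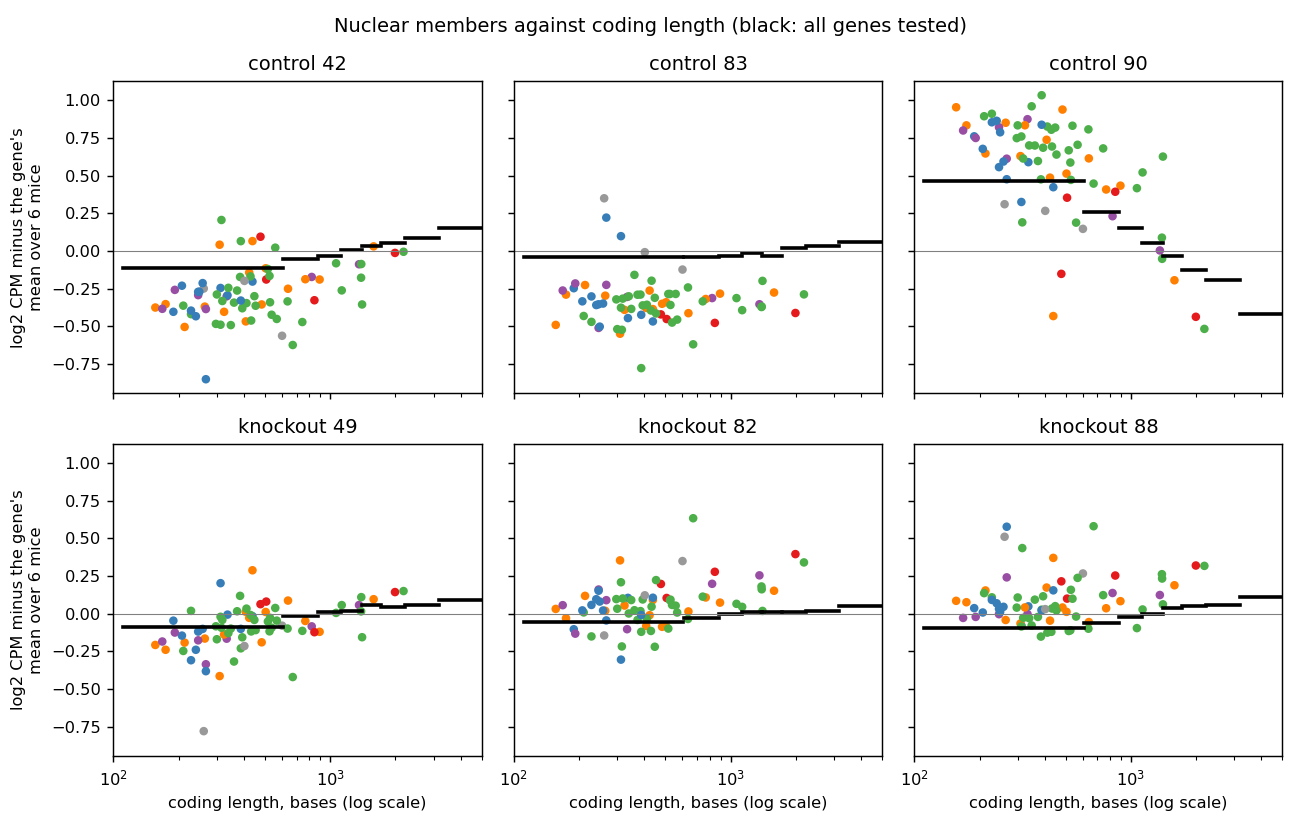
Deviation of log2 CPM from the gene's mean over the 6 mice against coding length (bases, log scale) for the 75 nuclear subunits, coloured by complex as in the plot of deviations by mouse, in each of the 6 mice. Black steps are medians over all genes tested in 8 classes of coding length: in mouse 90 they fall from 0.46 to -0.42, and in the other 5 mice they lie between -0.11 and 0.16.

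Relative to the mean of the other 2 controls, mouse 90 held 1.93 times as much CPM for the median nuclear subunit, with 70 of 75 above 1 and 33 of 75 above 2. The median ratio was 1.996 for the 66 short subunits and 1.16 for the 9 long ones. At the extremes, picked after their values were seen, Ndufa5, a small accessory subunit of complex I, stood at 2.64 times and Ndufs1, the longest subunit, at 0.770 times. The 58 subunits in the shortest length class had a mean deviation of 0.64 in mouse 90, against a median of 0.46 over all genes of that class. The 7 mitochondrial genes with fewer shared stretches were all highest in mouse 90, with deviations of 0.30 to 0.76. That of mt-Co1, with 1542 coding bases, was 0.62, where all genes of 1402 to 1719 bases had a median of -0.032. Ribosomal protein genes, another large set, were also high there. Mouse 90 was the highest mouse for 67 of 75 mitochondrial ribosomal protein genes (mean deviation 0.47) and for 64 of 72 cytoplasmic ones (mean deviation 0.68). What the length pattern of this library comes from was not tested.

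Fold changes between genotypes were also ordered by length (Spearman 0.56 over the 75 subunits and 0.23 over all genes). Long subunits had a median log2 fold change of 0.29 (7 positive, 2 negative) and short ones -0.093 (16 positive, 50 negative). Over all genes the medians were 0.037 for long and -0.15 for short genes. Without mouse 90 the median of the 75 nuclear subunits turned to 0.28, with 73 positive and 2 negative, and that of the 12 mitochondrial genes to 0.26, with 11 positive and 1 negative. In that fit 24 of 75 nuclear subunits had an unadjusted p under 0.05 with the knockout mice higher, against 5.26% of 13376 genes. Of these, 0 passed the adjusted test. Leaving out mouse 42, 83, 49, 82 or 88 instead gave 2, 0, 3, 0 and 0 of 75 at that unadjusted p. Over all genes those fits gave 1223, 368, 778, 245 and 295. The subunits moved together from mouse to mouse, so such counts are descriptions. The direction of the difference for most subunits rests on control mouse 90. Sdha (0.45), Ndufs1 (0.37), Ndufv1 (0.35) and Uqcrc2 (0.32) kept positive log2 fold changes without it. Ndufs7 moved from 0.51 to 0.92, Cox6c from -0.21 to 0.26 and Ndufb4 from -0.39 to 0.17. When each library was instead centred on the median of each of the 8 length classes, with all mice kept, the nuclear median was 0.16 (70 positive, 5 negative), the mitochondrial median -0.023, and 0 genes passed. The same model without centring gave -0.012 and -0.017.

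**Figure D5:**
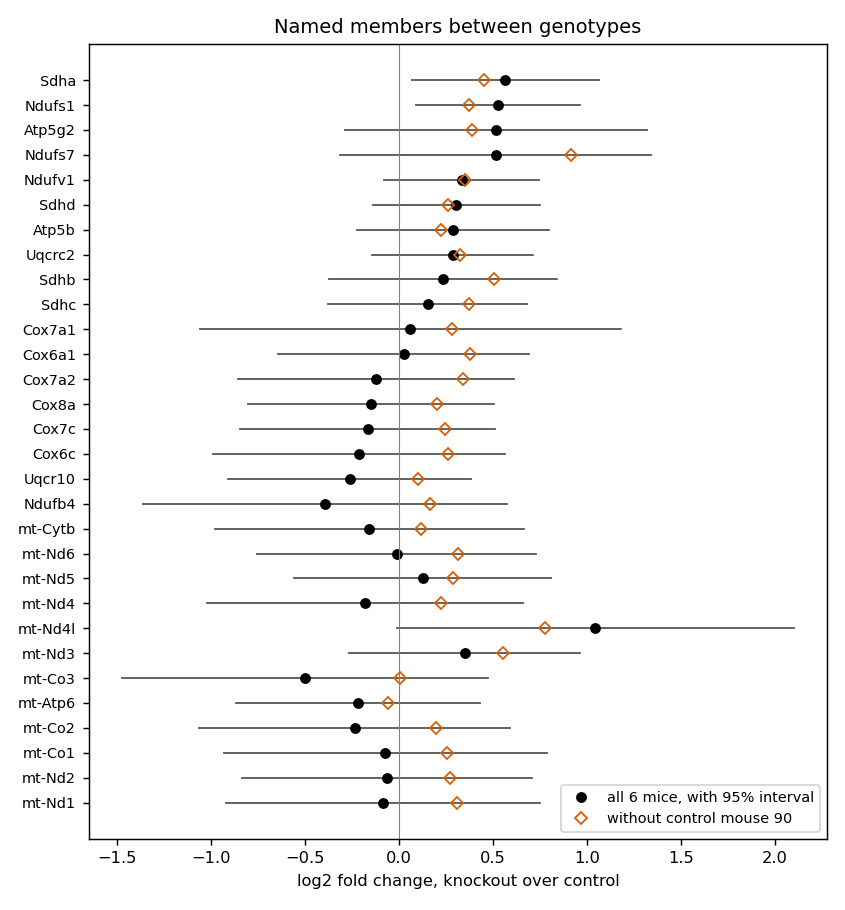
Log2 fold change of knockout over control mice for the mitochondrially encoded genes and the nuclear subunits named by rule, with all 6 mice (black points, 95% interval) and without control mouse 90 (open diamonds). Without mouse 90 most values shift to the right, while Sdha and Ndufs1, at 0.56 and 0.53 with all mice, shift to the left and stay above 0.

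Other mitochondrial genes gave 0 calls in any list with edgeR, against 0.0% of all genes. The medians of the lists differed. The TCA cycle list, which feeds electrons to the chain, had a median log2 fold change of 0.29 over 19 genes (16 positive, 3 negative). Groups did not overlap for 8 of 19 with the knockout mice higher (Pcx, Pdha1 and Ogdh among them), against 8.94% of all genes. Pcx, the pyruvate carboxylase that refills the cycle, stood at 347, 297 and 240.2 CPM in the control mice and at 380.1, 539 and 513 CPM in the knockout mice (log2 fold change 0.69 ± 0.24 SE, adjusted p = 0.365). Pdha1, a subunit of the pyruvate dehydrogenase complex, stood at 93.6, 86.9 and 58.5 CPM in the control mice and at 103, 121 and 114 CPM in the knockout mice (log2 fold change 0.50 ± 0.21 SE, adjusted p = 0.443). Mouse 90 was the lowest of the 6 mice for both genes, the reverse of its place for most subunits. Without it the median of the list was 0.27, with 17 positive and 2 negative. The mean deviation of the TCA list was -0.017, -0.27 and -0.066 in the control mice and 0.084, 0.15 and 0.12 in the knockout mice. Hepatocyte markers lay in the same direction, with a median log2 fold change of 0.30 over 15 genes (11 positive, 4 negative), and 4 of 15 had non-overlapping groups with the knockout mice higher. Their part in the values of the TCA list was not tested.

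The list of electron entry and coenzyme Q genes had a median of 0.17 over 20 genes (13 positive, 7 negative), and 6 had non-overlapping groups with the knockout mice higher, against 8.94% of all genes. Without mouse 90 the median was 0.15. Coq8a, needed to make coenzyme Q, stood at 136, 91.1 and 119 CPM in the control mice and at 183, 213 and 214 CPM in the knockout mice (log2 fold change 0.82 ± 0.21 SE, adjusted p = 0.295), the smallest unadjusted p (0.00356) of the mitochondrial lists. DESeq2 gave Coq8a an adjusted p under 0.05. Coq10a, a coenzyme Q-binding protein, stood at 16.3, 12.96 and 15.1 CPM in the control mice and at 19.96, 19.5 and 18.95 CPM in the knockout mice (log2 fold change 0.40). Among 14 regulators of mitochondrial gene expression (median 0.16), Ppargc1b, a coactivator of these genes, stood at 5.27, 3.30 and 1.80 CPM in the control mice and at 4.64, 9.97 and 11.03 CPM in the knockout mice (log2 fold change 1.29 ± 0.45 SE, adjusted p = 0.369); mouse 42 overlapped with mouse 49. Gabpa, an ETS factor that binds promoters of subunit genes, stood at 52.6, 43.7 and 37.4 CPM in the control mice and at 58.01, 54.7 and 55.1 CPM in the knockout mice (log2 fold change 0.33).

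Lists whose genes build and maintain the complexes lay nearer to all genes. Complex I assembly factors had a median of 0.10 over 15 genes (12 positive, 3 negative); Foxred1 and Nubpl, the 2 with the smallest p, had log2 fold changes of 0.43 and 0.49 and non-overlapping groups. Ndufaf5 and Ndufaf7, at -0.27 and -0.21, had non-overlapping groups with the knockout mice lower. That makes 2 of 15 higher, against 8.94% of all genes, and 2 of 15 lower, against 7.95%. Assembly factors of complexes II to V had a median of -0.058 over 30 (14 positive, 16 negative), with Lyrm7 at 0.72 and Coa5 at 0.30. Groups did not overlap for 3 of 30 with the knockout mice higher (Bcs1l, Coa5 and Lyrm7), against 8.94% of all genes. With the knockout mice lower it was 0 of 30, against 7.95%. Genes of mitochondrial DNA copying and transcription had a median of 0.051 over 27 (16 positive, 11 negative). Among them Lrpprc, which stabilises mitochondrial mRNA, stood at 111, 98.6 and 87.9 CPM in the control mice and at 112, 136 and 132 CPM in the knockout mice, and Tfb2m, a transcription factor of the organelle, had a log2 fold change of 0.29. Both had non-overlapping groups with the knockout mice higher, as did Tfam, which makes 3 of 27, close to the 8.94% of all genes. Stress and antioxidant genes had a median of 0.0060 over 19 (10 positive, 9 negative), with Trib3 at 0.58 and Atf5 at -0.59.

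The remaining lists had negative medians. Mitochondrial ribosomal proteins had a median of -0.16 over 75 genes (12 positive, 63 negative), with Mrps30 at -0.70 and Mrpl46 at -0.47. The protein import list had -0.21 over 22 (3 positive, 19 negative), and mouse 90 was the highest mouse for 19 of them. Without mouse 90 the medians of these 2 lists were 0.020 and -0.019. Tomm5, a small subunit of the outer membrane import pore, stood at 29.7, 39.5 and 52.1 CPM in the control mice and at 25.2, 29.1 and 24.1 CPM in the knockout mice (log2 fold change -0.63 ± 0.22 SE, adjusted p = 0.375); groups did not overlap. Timm8a1, an import chaperone, had a log2 fold change of -0.61. Carriers, porins and uncouplers had a median of -0.22 over 10 (3 positive, 7 negative). Ucp2, a carrier of the uncoupling protein family that is abundant in immune cells, stood at 60.1, 166 and 179 CPM in the control mice and at 57.5, 64.7 and 57.9 CPM in the knockout mice (log2 fold change -1.17 ± 0.36 SE, adjusted p = 0.33); control mouse 42 lay within the knockout range. Atpif1, the inhibitor of complex V hydrolysis, stood at 49.1, 77.9 and 114 CPM in the control mice and at 58.4, 53.1 and 48.1 CPM in the knockout mice (log2 fold change -0.59). Neutrophil and lymphocyte markers, measured beside Ucp2, were also higher in mice 83 and 90: neutrophil markers summed to 19.7, 56.4, 82.8 CPM in the control mice and 13.5, 18.8, 17.01 CPM in the knockout mice. Their part in the Ucp2 levels was not tested.

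The promoter sequences of the nuclear subunits were read from the RefSeq table for GRCm38.p6, which holds 250 bases before and 50 after each start. Promoters were found for 64 of 75 nuclear subunits. On either strand, the NRF1 motif GCGCATGCG was present in 7 of 64 (10.9%) and in 2.70% of 16859 genes with a promoter. The YY1 motif AAGATGGCG was present in 7 of 64 (10.9%) against 2.22%, the ERR motif TCAAGGTCA in 2 of 64 (3.12%) against 0.386%, and the ETS motif CCGGAAGT in 4 of 64 (6.25%) against 5.86%. NRF1, YY1, the estrogen-related receptors and ETS factors such as GABP are known regulators of respiratory genes. The NRF1 motif was in the promoters of Atp5g2, Atp5k, Atp5l, Cox6a1, Ndufa11, Ndufa8 and Uqcr11. Of these, 3 are printed as examples, each as the last 120 bases before the start, 5′ to 3′ on the gene's strand, with the motif or its reverse complement in capitals.
Atp5k, chr5:108434400-108434519, minus strand: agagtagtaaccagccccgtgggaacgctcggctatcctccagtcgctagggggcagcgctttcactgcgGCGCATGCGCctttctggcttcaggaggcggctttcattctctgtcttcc
Ndufa11, chr17:56717642-56717761, plus strand: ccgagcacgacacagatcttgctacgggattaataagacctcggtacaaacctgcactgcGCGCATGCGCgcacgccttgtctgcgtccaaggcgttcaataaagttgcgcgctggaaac
Ndufa8, chr2:36049339-36049458, minus strand: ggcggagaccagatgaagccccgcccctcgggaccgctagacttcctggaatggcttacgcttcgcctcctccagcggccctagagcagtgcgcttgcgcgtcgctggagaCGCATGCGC
In Atp5k and Ndufa11 the motif is read on both strands of a single palindromic run. In these 3 genes mouse 90 was the highest, as in 62 of the 75 nuclear subunits. In Ndufa11 and Ndufa8, unlike the mean of the nuclear subunits, mouse 49 was the highest knockout mouse. Atp5k stood at 52.2, 63.3 and 116 CPM in the control mice and at 64.8, 80.4 and 82.4 CPM in the knockout mice, Ndufa11 stood at 70.5, 60.3 and 139 CPM in the control mice and at 78.8, 73.2 and 72.9 CPM in the knockout mice, and Ndufa8 stood at 91.2, 81.3 and 158 CPM in the control mice and at 95.6, 92.6 and 91.5 CPM in the knockout mice. Atp5g2, which has the same motif, was with Sdha and Ndufs1 among the 3 nuclear subunits lowest in mouse 90. A match is a description of these letters and not a measured binding site. The part of these motifs in the levels by mouse was not tested.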

How the data were processed

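For the 6 livers, a single table of raw read counts was deposited by the authors. Per the labels' protocols, RNA was extracted with TRIzol and libraries came from a NEBNext Ultra kit. The submitters' processing notes name Trimmomatic, FastQC, STAR, HTSeq and mm10. The annotation, strand setting and treatment of reads with several matches were not given in the sources used here. Each sample is a different mouse, going by the titles.

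Low counts were removed with filterByExpr. The remaining 13153 genes were normalised with TMM factors and compared by genotype alone with edgeR 4.0.16 in R 4.3.3 (quasi-likelihood F test), with p-values adjusted over all genes by Benjamini-Hochberg and called at 0.05. Deviations use log2 CPM with a prior count of 2. Lengths, positions and shared 50-base stretches come from GENCODE M21 gene models and transcripts (GRCm38, the assembly of mm10), using the transcript with the longest coding sequence of each gene.

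The members, gene lists and marker lists were chosen with earlier results of these data known, so lists are described by counts and medians and not tested. Named genes are all mt rows, complex II, the 2 smallest p of each other complex and of each pathway list, the 5 largest changes, isoform pairs, subunits outside the symbol patterns and Prmt1; other names were chosen after their values were seen. Settings varied were the scaling (RLE size factors, total counts, TMM without mt genes), the filter (none, or at least 1 CPM in 3 mice), the tool (DESeq2 1.42.0, limma-voom of limma 3.58.1, robust edgeR), the threshold (0.10) and the mice, left out 1 at a time. The mice numbered over 80 alone, and libraries centred within 8 coding-length classes (limma-trend), were added after seeing the data.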

Additional observations from a re-analysis of the deposited data

How the results depend on the processing

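No nuclear or mitochondrially encoded gene of the set passed an adjusted p of 0.05 in any setting run, DESeq2 and limma-voom included, or 0.10 in edgeR with all mice. The count of genes passing over the whole table was 3 at an adjusted p of 0.10, 4 with no low-count filter and 238 with DESeq2, and lay between 0 and 13 when a mouse was left out (13 without mouse 49). The median of the nuclear genes ranged from -0.24 (without mouse 42) to 0.28 (without mouse 90), and that of the mitochondrial genes from -0.28 to 0.26, with 0.058 without mouse 49. On mice numbered over 80 alone the medians were -0.20 and -0.12. Scaling by total counts moved the median of all genes from -0.023 to -0.17 and the nuclear and mitochondrial medians to -0.19 and -0.20. It turned mt-Nd5 (-0.0093), Cox6a1 (-0.080), Cox7a1 (-0.089), Ndufab1 (-0.11) and Cox4i1 (-0.098). Leaving mt genes out of the scaling turned Ndufab1 (-0.0078) and Cox4i1 (-0.0055), no filter turned Ndufab1 (-0.00051), and limma-voom turned mt-Nd6 (0.015). Coq8a passed with DESeq2 only. Leaving out a mouse gave log2 fold changes of -0.31 to 0.12 for mt-Cytb, -0.25 to 0.26 for mt-Co1, -0.43 to 0.19 for mt-Co2, -0.74 to 0.0037 for mt-Co3, -0.39 to 0.22 for mt-Nd4, -0.0030 to 0.31 for mt-Nd5, -0.18 to 0.31 for mt-Nd6, -0.31 to 0.31 for mt-Nd1, -0.27 to 0.27 for mt-Nd2, -0.013 to 0.37 for Sdhc, -0.44 to 0.10 for Uqcr10, -0.43 to 0.26 for Cox6c, -0.37 to 0.24 for Cox7c, -0.74 to 0.17 for Ndufb4, -0.16 to 0.38 for Cox6a1, -0.30 to 0.28 for Cox7a1, -0.36 to 0.34 for Cox7a2, -0.33 to 0.20 for Cox8a, -0.18 to 0.19 for Ndufab1, -0.15 to 0.30 for Cox4i1 and -0.72 to 0.31 for Cycs. Of 55 named genes, 9 of 440 values with all mice kept and 33 of 330 with a mouse left out changed sign, 15 of them without mouse 90; why was not tested. The difference in the mitochondrial share of counts was -0.59 percentage points, -0.70 without the 20 most abundant other genes and between -1.14 and 0.071 with a mouse left out; all mt rows are protein genes. No paired analysis was possible because the mouse numbers are not shared between the genotypes. Depth limits mt-Nd4l, Cox7a1, Cox6b2, Atp5g2 and Ndufa4l2, with under 200 counts each over 6 mice.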
